A study of Homo sapiens with 18 samples.

Results

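The regions described here are 818 of the 132604 regions counted by Omni-ATAC-seq in T47D cells, and they share one dose pattern: reads rose with 10 nM of the progestin R5020 and stayed near the vehicle level with 0.1 nM. A region was a member if its mean level in the 6 vehicle libraries was at least 1 CPM (counts scaled to the total of the library in regions), if its mean log2 CPM with 10 nM was at least 1.5 above vehicle, and if its mean log2 CPM with 0.1 nM was within 0.4 of vehicle. The last pair of conditions had to hold at 6 h and again at 18 h. Members were thus chosen by their vehicle, 0.1 nM and 10 nM values, so the rise with 10 nM, the small difference with 0.1 nM and the gap between the doses are given below as descriptions and are not tested.

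T47D is an established line from a human breast carcinoma, and its cells contain the progesterone receptor. The receptor is a transcription factor that R5020 (promegestone, a synthetic progestin) switches on by binding to it. Hormone-bound receptor settles on DNA, often at distal enhancers, and recruits coactivators and chromatin remodellers that loosen or move nucleosomes there. The share of receptor molecules that carry ligand grows with the dose, so a dose series asks which sites of the genome respond to little hormone and which respond at higher levels. In ATAC-seq the Tn5 transposase inserts adapters into exposed DNA, so that read counts in a region follow how open it is.

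The cells were kept in medium nearly free of serum and then received R5020 at 0.1 nM or at 10 nM, or DMSO as the vehicle. Treatment lasted 6 h or 18 h, which makes 6 groups, each of 3 libraries. No genotype or second agent distinguishes the groups, and all come from this 1 cell line. Whether the 3 libraries of a group are separate cultures is not stated in the labels, and the p-values reflect only how much these libraries vary, possibly for technical reasons. Libraries held 8756311 to 39984217 counts in regions. The median count per member was between 11.5 and 42.0 in the 12 libraries of vehicle or 0.1 nM and between 81.0 and 376 in the 6 libraries of 10 nM. Regions are named by their hg19 coordinates as the deposited table gives them, without knowing whether its starts count from 0 or 1. Their genes, sequences and motifs were not analysed here.

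The members were open in vehicle cells only to a low degree. Their median vehicle level was 1.74 CPM (quartiles 1.28 and 2.53), against 2.10 CPM over all 132304 tested regions, and 521 of the 818 lay below the latter. Per kilobase of region the difference was wider: the members' median of 3.28 CPM per kb was at percentile 23.7 of tested regions, whose median was 5.68 CPM per kb. Only 56 members reached 5 CPM in vehicle cells and 7 reached 10 CPM. Most of the set is therefore described by the rule itself, as weakly accessible regions above 1 CPM, and not as regions that were strongly open beforehand. The limit of 1 CPM cut through a continuous range: the lowest members, chr7:157637918-157638300 and chr7:78211113-78211844, both had 1.0 CPM when rounded, while chr3:140486249-140486726 at 0.999 CPM met every other condition and fell outside.

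With 10 nM the same regions moved to the upper part of the genome-wide range. Their median reached 17.3 CPM per kb at 6 h, percentile 83.8 of tested regions in those libraries, and 14.97 CPM per kb at 18 h, percentile 82.9. With 0.1 nM it was 2.92 CPM per kb at 6 h and 3.98 CPM per kb at 18 h, percentiles 23.2 and 26.5. Members thus ranked among the weaker regions with vehicle and with 0.1 nM and among the stronger ones with 10 nM. These are bulk libraries, so more cells with an open region and more access per cell cannot be told apart.

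The rise with 10 nM had a median log2 difference of 2.503 at 6 h (quartiles 2.09 and 2.94, highest 4.29) and of 1.89 at 18 h (quartiles 1.67 and 2.24, highest 4.35). At least 4-fold rises were seen at 651 members at 6 h, at 332 at 18 h and at 310 at both times. At least 8-fold rises were seen at 177 members at 6 h and 25 at 18 h. In each of the 6 libraries of 10 nM, all 818 members lay above the vehicle mean of the same time. The members took 0.129% to 0.258% of all counts in the 6 vehicle libraries, 0.146% to 0.336% in the 6 libraries of 0.1 nM and 0.825% to 1.14% in the 6 libraries of 10 nM, with no overlap between 10 nM and the rest.

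**Figure D1:**
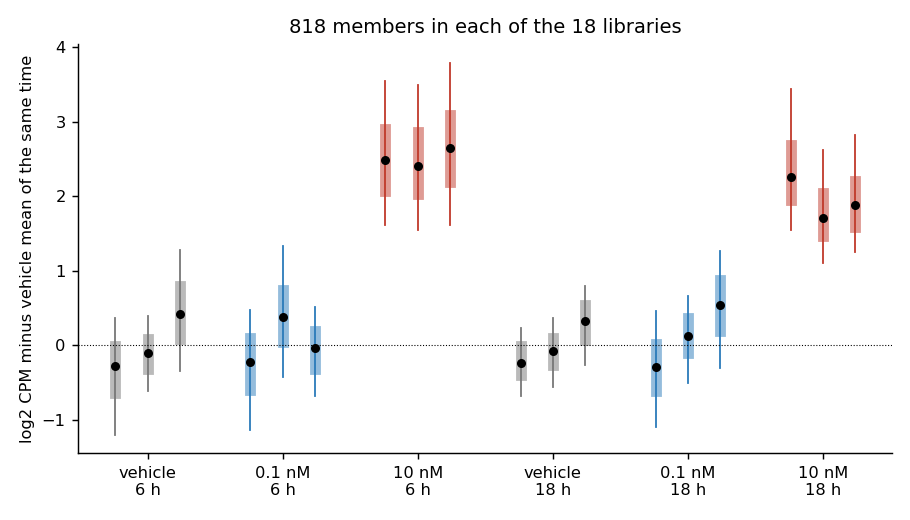
Log2 CPM of the 818 members in each of the 18 libraries, minus the vehicle mean of the same time; points are medians over members, boxes run between the quartiles and lines from the 5th to the 95th percentile, with replicates 1 to 3 from left to right in each group. The medians with 10 nM lie between 1.71 and 2.64, and those with vehicle or 0.1 nM between -0.29 and 0.54.

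Replicate libraries of vehicle and 0.1 nM differed from one another by more than the average effect of 0.1 nM. The median member stood at -0.28, -0.11 and 0.43 relative to the vehicle mean in vehicle replicates 1 to 3 at 6 h, and at -0.22, 0.38 and -0.04 in the 0.1 nM replicates. At 18 h it stood at -0.23, -0.07 and 0.32 with vehicle and at -0.29, 0.13 and 0.54 with 0.1 nM. Vehicle and 0.1 nM overlapped at both times. The order of the libraries inside each of the 4 groups was the reverse of the order of their share of counts in their own 5000 strongest regions, which ran from 42.6% to 37.4% for vehicle and from 39.7% to 37.0% for 0.1 nM at 6 h, and from 40.3% to 36.5% and from 39.9% to 34.5% at 18 h. With 10 nM that share was 34.1% to 35.1% at 6 h and 32.5% to 38.0% at 18 h. Its part in the differences between replicates was not tested.

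Across single members the median standard deviation of log2 CPM between replicates was 0.50 at 6 h and 0.38 at 18 h with vehicle, and 0.45 and 0.52 with 0.1 nM. The 10 nM libraries had 0.19 at 6 h and 0.38 at 18 h. The baseline of a member was thus measured less precisely than its level with 10 nM at 6 h, on fewer reads.

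Calls come from an edgeR fit of all regions, at adjusted p-values (Benjamini-Hochberg) under 0.05. Higher reads with 10 nM than with vehicle were called at 814 members at 6 h, where 16.7% of all tested regions were called, and at 804 members at 18 h, against 12.8%. Against 0.1 nM, 10 nM was called higher at 813 members at 6 h, where 15.1% of regions were called, and at 755 at 18 h, against 6.67%. The rule fixes these counts, and nothing is read from them beyond the size of the errors. The 3 libraries of 10 nM lay above all 3 of vehicle at 815 members at 6 h and 817 at 18 h, which 25.2% and 19.5% of all regions did. They lay above all 3 of 0.1 nM at 815 members at 6 h and 805 at 18 h, against 23.3% and 12.8%. A total of 16 members missed the call in at least 1 of 3 comparisons, 10 nM with vehicle at either time or 10 nM with 0.1 nM at 6 h. Of these, 3 were called in none of the 4 comparisons of 10 nM with vehicle or 0.1 nM, namely chr2:97117266-97118026, chr3:13374274-13374605 and chr4:501532-502084, the last with mean rises of 1.53 and 1.58.

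The 8 members with the largest mean rise over both times started from 1.05 to 4.40 CPM with vehicle and lay on chromosomes 2, 5, 6, 7, 10 and 11. The largest was chr10:129894670-129895332, a region of 662 bp. At 6 h its replicates had 0.41, 1.23 and 1.30 CPM with vehicle, 0.855, 1.92 and 0.768 CPM with 0.1 nM and 15.8, 19.8 and 22.2 CPM with 10 nM. At 18 h they had 1.10, 0.514 and 1.77 CPM, 0.842, 1.04 and 2.56 CPM, and 28.9, 19.4 and 20.2 CPM in the same order of doses. Vehicle and 0.1 nM overlapped at both times and 10 nM stood far above both, with fitted ratios to vehicle of 17.9-fold at 6 h and 20.3-fold at 18 h.

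Region chr2:27237861-27238424 showed the same pattern with a rise that was as large at 18 h as at 6 h. It had 1.54, 1.19 and 1.95 CPM with vehicle at 6 h, 1.30, 1.98 and 0.805 CPM with 0.1 nM and 22.4, 22.3 and 29.4 CPM with 10 nM. At 18 h the values were 1.35, 1.23 and 2.54 CPM, 0.806, 1.73 and 3.704 CPM, and 36.2, 26.0 and 23.4 CPM, and the fitted ratios to vehicle were 15.8-fold and 16.8-fold. The highest 0.1 nM value at 18 h came from replicate 3, the library in which the members as a group were also highest for that dose.

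Chromosome 5 held 3 of these 8 members, and they were the strongest ones with 10 nM. At chr5:159162640-159163520 vehicle gave 4.50, 3.44 and 5.03 CPM at 6 h, 0.1 nM gave 4.36, 3.12 and 4.24 CPM, and 10 nM gave 53.6, 56.7 and 67.8 CPM. At 18 h the same region had 4.02, 4.16 and 5.25 CPM with vehicle, 4.65, 5.75 and 6.36 CPM with 0.1 nM and 77.4, 45.0 and 55.6 CPM with 10 nM. Its ratios to vehicle were 13.5-fold and 13.2-fold. The 10 nM libraries stood apart at both times, whereas 0.1 nM overlapped with vehicle at both. Elsewhere on that chromosome, chr5:154208594-154209442 rose 15.2-fold at 6 h and 10.4-fold at 18 h, and chr5:167678196-167679205 rose 16.5-fold and 10.8-fold.

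The other 3 of the 8 were chr6:152410859-152411421 (17.0-fold at 6 h and 15.1-fold at 18 h), chr7:134945934-134946602 (16.4-fold and 15.8-fold) and chr11:130565631-130566238 (13.3-fold and 14.0-fold). In all 8, the 95% interval of the log2 ratio of 0.1 nM to vehicle included 0 at both times, which the rule favours. The widest of these intervals was that of chr7:134945934-134946602, from -1.61 to 0.78 at 6 h, where the vehicle replicates themselves ran from 0.398 to 2.43 CPM.

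**Figure D2:**
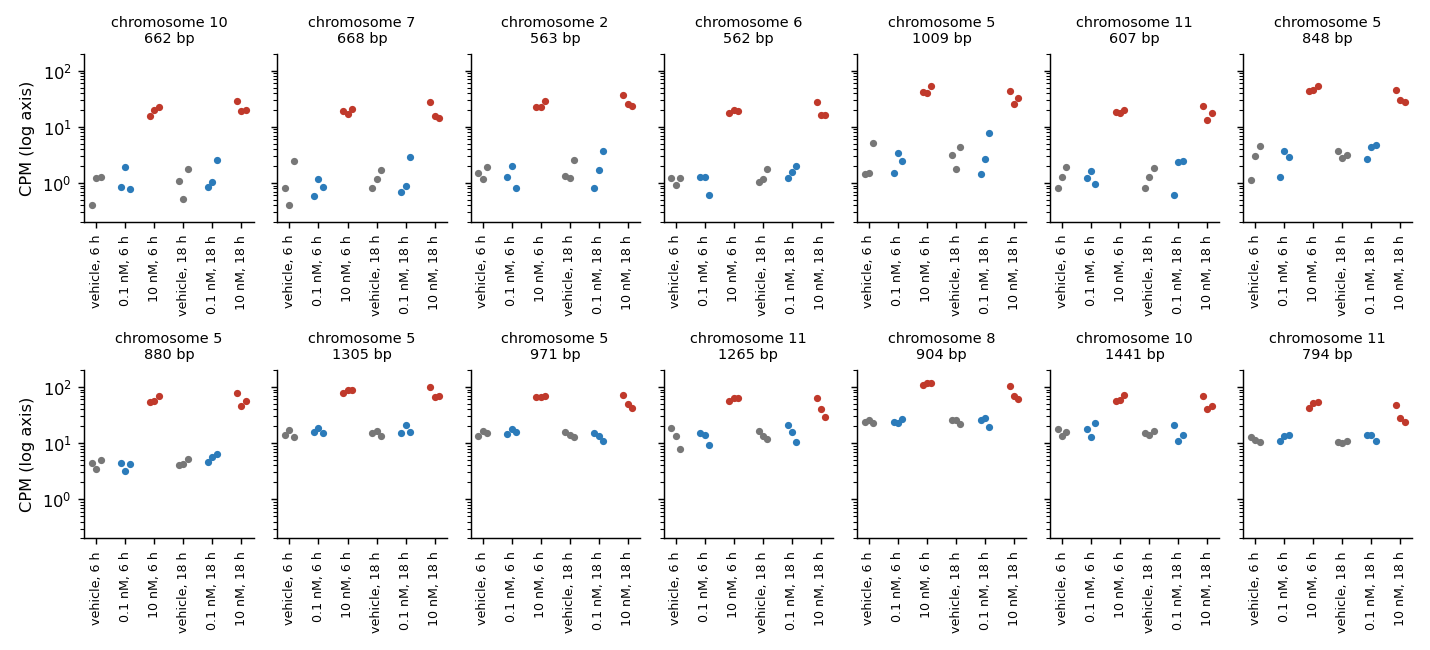
CPM on a log axis in each library for the 8 members that rose most and the 6 of highest vehicle level, each set in order of mean rise, with chromosome and width above each panel; grey is vehicle, blue 0.1 nM, red 10 nM and each point 1 library. In all 14 panels the red points lie above the grey and blue points of the same time, and grey and blue points overlap at each time except at 18 h in the last panel.

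The 6 members with the highest vehicle level were clearly open before hormone, and there the pattern could be read with smaller errors than at the median member. The highest was chr8:101429137-101430041, with 23.4, 25.5 and 23.2 CPM in vehicle cells at 6 h. It had 24.2, 22.6 and 27.4 CPM with 0.1 nM and 109.9, 116.0 and 118.6 CPM with 10 nM. At 18 h vehicle gave 25.7, 25.5 and 22.1 CPM, 0.1 nM gave 26.0, 28.1 and 19.5 CPM and 10 nM gave 102.2, 70.3 and 61.6 CPM. The 10 nM libraries were 4.62-fold above vehicle at 6 h and 3.16-fold at 18 h. For 0.1 nM the log2 ratio to vehicle was 0.02 at 6 h (95% interval -0.40 to 0.44) and -0.01 at 18 h (95% interval -0.42 to 0.41).

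At chr5:138709146-138710117, vehicle gave 13.1, 16.3 and 14.9 CPM at 6 h, 0.1 nM gave 14.4, 17.8 and 15.5 CPM and 10 nM gave 65.3, 65.0 and 67.9 CPM, a 4.32-fold rise. The rise was 3.81-fold at 18 h. Region chr5:133846899-133848204, 1305 bp wide, went from 14.0, 17.3 and 12.7 CPM with vehicle at 6 h to 79.5, 87.6 and 88.5 CPM with 10 nM (5.59-fold) and had 15.5, 18.5 and 15.4 CPM with 0.1 nM. The remaining 3, chr10:95003614-95005055, chr11:128077736-128079001 and chr11:48109731-48110525, rose 3.85-fold, 4.53-fold and 4.16-fold at 6 h. The least precise of the 6 was chr11:128077736-128079001, with 18.7, 13.3 and 7.71 CPM in vehicle at 6 h. The SE of its log2 ratio of 10 nM to vehicle at 6 h was 0.32, against a median of 0.37 over the members. For all 6 the upper limit of the 95% interval of 0.1 nM against vehicle was at most 0.83 (log2) at either time. That was below the rise of the same region with 10 nM, a gap that the rule favours.

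The median rise was similar in weak and in stronger members, all of which the rule required to rise by at least 1.5. This common floor draws the medians together, so no relation between vehicle level and rise is read from them. Of the 818, 482 had 1 to 2 CPM with vehicle, 280 had 2 to 5 CPM and 56 had 5 CPM or more, and the median rises at 6 h were 2.51, 2.55 and 2.30. At 18 h they were 1.91, 1.86 and 1.76. Members of 5 CPM or more reached a median of 35.2 CPM with 10 nM at 6 h, and those of 1 to 2 CPM reached 6.94 CPM. Membership itself was rarer at strong regions: 1.65% of all regions of 1 to 2 CPM were members, 0.871% of those of 2 to 5 CPM and 0.155% of those of 5 CPM or more.

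At 0.1 nM, edgeR called no member in either direction at 6 h or at 18 h, against 1.19% and 2.44% of all regions, and no member had an unadjusted p under 0.05, which 8.83% and 11.6% of all regions had. DESeq2 called none either, with 2350 and 4415 calls over all regions. The rule kept regions whose 0.1 nM mean was near vehicle, so nothing is read from these counts of 0. The 0.1 nM and vehicle libraries separated without overlap at 13 members at 6 h and 16 at 18 h, against 13.6% and 16.1% of all regions. The median difference of 0.1 nM from vehicle was 0.04 at 6 h and 0.14 at 18 h on the log2 scale, and 455 and 588 members had a positive one. Under size factors from DESeq2 in place of TMM the medians were 0.01 and 0.15.

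The error of the 0.1 nM measurement limits what a lack of response means for a single member. The standard error of its log2 ratio to vehicle had a median of 0.38 at 6 h and 0.37 at 18 h. A 2-fold rise lay above the 95% interval at 620 of the 818 members at 6 h and at 481 at 18 h. The rule kept members whose 0.1 nM mean was near vehicle in these same libraries. The intervals are thus centred near 0 by the choice, and no rise is taken as excluded by them. The interval's upper limit was below the estimated rise with 10 nM at 817 members at 6 h and 813 at 18 h. The rule nearly fixes these counts too, so the intervals are read only for their width. The members with the smallest difference show this: chr14:34678315-34678888 had a log2 ratio of 0.02 at each time, yet its interval ran from -0.93 to 0.96 at 6 h, on replicate values of 0.819, 0.616 and 1.14 CPM with vehicle and 0.531, 0.96 and 1.10 CPM with 0.1 nM. With 10 nM this region had 3.22, 3.76 and 3.88 CPM at 6 h, above both other groups.

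**Figure D3:**
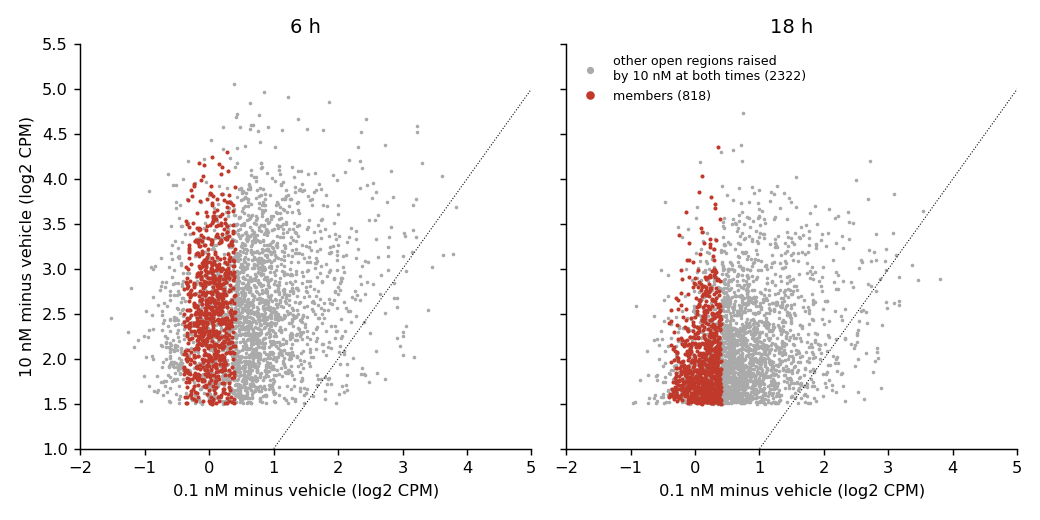
Difference from vehicle with 10 nM (vertical axis) against the difference with 0.1 nM (horizontal axis), both in log2 CPM, for the 3140 regions of at least 1 CPM in vehicle that 10 nM raised by at least 1.5 at both times; red points are the 818 members, grey points the other 2322, and the dotted line marks equal differences. The members form the band within 0.4 of 0 on the horizontal axis, inside a continuous cloud that spreads to the right.

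Members were a band of a continuous range of dose responses. Of the 3140 regions of at least 1 CPM in vehicle that 10 nM raised at both times, 818 (26.1%) met the 0.1 nM limits. A further 1286 (41.0%) had a 0.1 nM difference of 0.4 or more at both times, 864 (27.5%) had one at a single time, and 10 had a difference of -0.4 or less at both times. Just inside the limit at 18 h was chr14:69389701-69389994 with a 0.1 nM difference of 0.40, and just outside was chr10:14372589-14373040, also at 0.40 when rounded. Membership also moved with single libraries. Without replicate 1 of 0.1 nM at 18 h the rule gave 516 regions, 446 of them members; without replicate 3 of vehicle it gave 646 at 18 h and 656 at 6 h, with 489 and 532 members. Without any 1 of the 10 nM libraries of 6 h, 798 to 810 members remained. Without replicates 1, 2 and 3 of 10 nM at 18 h, 641, 792 and 750 members remained. Asking in addition that each of the 0.1 nM libraries be within 0.8 of vehicle left 387 members (47.3%). At the limit of the rise at 18 h, chr20:13323015-13323485 was a member at 1.501 and chr1:143428437-143429291 was not at 1.498.

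The response was larger after 6 h than after 18 h at 718 of the 818 members (87.8%), with a median log2 difference between the rises of -0.50. Over all tested regions that median was -0.13. It was -0.35 at regions under 1 CPM in vehicle that met the same dose conditions. At regions of at least 1 CPM that both doses raised by 1.5 or more at both times it was -0.34. The smaller response at 18 h was thus not particular to the members. In the vehicle libraries the members' fitted log2 ratio of 18 h to 6 h had a median of 0.22 and was positive at 622 members, against a median of 0.01 over all tested regions. With 0.1 nM the medians were 0.39 and 0.04. With 10 nM the members' median was -0.20, against -0.02 over all regions. So the members' smaller response at 18 h went with a higher baseline as well as lower reads with 10 nM, each by a small amount. The regions under 1 CPM had medians of 0.35 with vehicle, 0.54 with 0.1 nM and 0.07 with 10 nM. Those raised by both doses had 0.11, 0.18 and -0.06.

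Tested region by region, few of these time differences passed. With edgeR no member was called between the times for vehicle, where 0.0% of all regions were called, and 19 members had an unadjusted p under 0.05, as had 2.87% of all regions. For 0.1 nM no member was called, against 0.00151% of all regions, and 71 had an unadjusted p under 0.05, against 9.80% of all regions. For the change of the response to 10 nM between the times, a comparison added after the data were seen, no member was called, against 0.00151% of all regions, and 93 had an unadjusted p under 0.05, against 5.57% of all regions. DESeq2 called no member for vehicle or for 0.1 nM and 2 members for the change of the response. Over all regions it called 0, 182 and 232 in the same order. For 10 nM itself, edgeR called 21 members lower at 18 h than at 6 h, 2.57% of members against 1.13% of all regions. No member was called higher with 10 nM at 18 h, which 0.112% of all regions were. The rule used these libraries, although not this comparison.

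The 21 members fell by 1.84-fold to 3.67-fold between 6 h and 18 h of 10 nM, with a median log2 ratio of -1.23, while their median change in vehicle was -0.02. The smallest p was at chr3:129159826-129160412, where 10 nM gave 24.4, 26.0 and 31.6 CPM at 6 h and 10.1, 6.46 and 7.86 CPM at 18 h. Its vehicle libraries had 3.58, 2.57 and 3.08 CPM at 6 h and 1.73, 2.88 and 3.72 CPM at 18 h. The 10 nM groups did not overlap, and the later one was 3.28-fold lower (log2 ratio -1.71, SE 0.24, edgeR adjusted p = 0.00103) while still above all vehicle libraries.

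The same was seen at chr5:65045127-65046278, with 22.3, 20.6 and 22.4 CPM at 6 h and 8.18, 7.27 and 7.12 CPM at 18 h (log2 ratio -1.50, SE 0.25, edgeR adjusted p = 0.00405). At chr3:153857843-153858426 the values went from 21.8, 21.2 and 25.7 CPM to 10.7, 9.29 and 6.56 CPM (log2 ratio -1.33, SE 0.22, edgeR adjusted p = 0.00367). The largest fall was at chr11:76968671-76969156, from 16.9, 17.7 and 15.5 CPM to 5.98, 3.23 and 3.97 CPM (log2 ratio -1.87, SE 0.32, edgeR adjusted p = 0.00507). In all 3 the groups of the 2 times did not overlap, while the 18 h replicates of chr3:153857843-153858426 and chr11:76968671-76969156 were spread more widely than those of chr5:65045127-65046278. The number called rested on single 10 nM libraries: it was 7 without replicate 2 or without replicate 3 of 18 h, 65 without replicate 1 of 18 h, and 11, 9 and 9 without replicates 1, 2 and 3 of 6 h. DESeq2 called 37 members lower, among them all 21, and with only the compared groups in the fit 7 were called. Over all regions, in either direction, calls numbered 1649 in the main fit, 3169 with DESeq2 and 397 with the compared groups alone. They ran from 594 to 3297 when 1 of the 10 nM libraries was left out. All 21 were lower at 18 h under every alternative run.

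A smaller number leaned the other way without passing. The 3 members with the smallest p for a higher level at 18 h were chr19:29589959-29590431 (log2 ratio 0.91, edgeR adjusted p = 0.0994), chr3:186369455-186370015 (0.87, edgeR adjusted p = 0.104) and chr20:43123920-43125015 (0.95, edgeR adjusted p = 0.131). When the fit carried as a covariate what fraction of each library fell in its own 5000 strongest regions, all 3 were called (edgeR adjusted p of 0.0264, 0.0208 and 0.0204), and chr20:43123920-43125015 also without replicate 3 of 10 nM at 18 h (0.0428). At chr19:29589959-29590431, 10 nM gave 4.40, 3.85 and 3.91 CPM at 6 h and 9.44, 6.71 and 6.10 CPM at 18 h, which did not overlap. Among the named members the fitted change of the response had its most negative log2 value, -2.04, at chr15:42242443-42243007. That region was 13.7-fold above vehicle at 6 h and 3.34-fold at 18 h, and the change was not called there. In log2 CPM the difference between the rises was lowest at chr11:76968671-76969156, at -2.21, where the fitted change was not called either.

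Whether the dose pattern holds in libraries that did not choose the regions was read by applying the rule to 1 time alone and looking at the other. The 6 h libraries alone gave 2991 regions, of which 702 are members. At 18 h, libraries that had no part in this choice, 2107 of them (70.4%) were called higher with 10 nM than with vehicle by edgeR, against 12.8% of all regions, and 2956 had a positive difference. Their median rise was 1.34 (quartiles 0.94 and 1.84), and 1223 (40.9%) reached 1.5. Over all tested regions the difference with 10 nM at 18 h had a median of -0.03 (quartiles -0.42 and 0.57). With 0.1 nM at 18 h, all tested regions had a median difference of -0.01 (quartiles -0.26 and 0.31). Most regions of any kind thus lay within 0.4 of vehicle. The 2991 regions had a median difference of 0.19 with 0.1 nM, and 2058 of them (68.8%) were within 0.4 of vehicle. With that dose 36 of the 2991 were called higher and 1 lower. Of all regions, 1.74% were called higher and 2.44% in either direction.

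The 18 h libraries alone gave 1540 regions, of which 808 are members. At 6 h, 1484 of them (96.4%) were called higher with 10 nM, against 16.7% of all regions, all 1540 had a positive difference, and the median rise was 2.52, with 1450 regions (94.2%) at 1.5 or more. Over all tested regions the difference with 10 nM at 6 h had a median of 0.03 (quartiles -0.36 and 0.80). With 0.1 nM the 1540 regions had a median difference of 0.12, with 970 (63.0%) within 0.4 of vehicle. Of the 1540, 6 were called higher with 0.1 nM, against 0.949% of all regions. All tested regions had a median difference of -0.01 with 0.1 nM at 6 h (quartiles -0.24 and 0.26), so most of those also lay within 0.4. The rise with 10 nM was thus seen again at the other time at most of the regions in each list.

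Library by library, the medians of the 2991 regions at 18 h were 1.57, 1.26 and 1.37 with 10 nM and -0.16, 0.21 and 0.57 with 0.1 nM, relative to the vehicle mean. Those of the 1540 regions at 6 h were 2.49, 2.43 and 2.65 for the higher dose, against -0.10, 0.50 and 0.07 with 0.1 nM. The libraries of 10 nM were close to each other and far from the rest in both cases. The lists from the separate times shared 692 regions, 23.1% of the longer and 44.9% of the shorter.

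**Figure D4:**
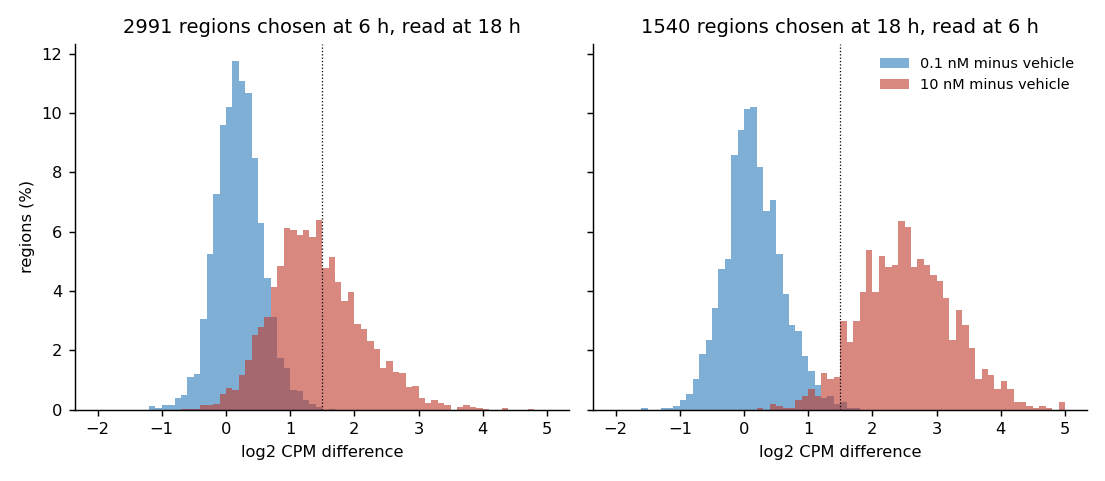
Distribution of the log2 CPM difference from vehicle at the time that did not choose the regions: left, the 2991 regions chosen at 6 h and read at 18 h; right, the 1540 chosen at 18 h and read at 6 h, as percent of regions in bins of 0.1. Blue bars are 0.1 nM and red bars 10 nM, and the dotted line marks the rise of 1.5 that the rule asks for; the medians with 10 nM are 1.34 and 2.52, those with 0.1 nM 0.19 and 0.12.

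Next to regions of at least 1 CPM that both doses raised by 1.5 or more at both times, the members differ in what 0.1 nM did, which the choice fixes. Those 190 regions had 3.73 CPM per kb with vehicle, 25.005 CPM per kb with 10 nM at 6 h and 16.2 CPM per kb with 0.1 nM at 6 h at the median. The members' medians were 3.28, 17.3 and 2.92 CPM per kb. A total of 1175 regions under 1 CPM in vehicle met the same dose conditions as the members. Their medians were 1.60 CPM per kb with vehicle and 7.86 CPM per kb with 10 nM at 6 h, so that they ended near the middle of the genome-wide range (percentile 57.6) where the members ended at percentile 83.8.

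Width was not used by the rule. Members had a median width of 568 bp (quartiles 454 and 719, range 200 to 1441), against 495 bp for all tested regions of at least 1 CPM and 387 bp for all tested regions. The 1175 weaker regions had a median of 301 bp and the 190 raised by both doses 616 bp. Within the members, width went with vehicle level: the median was 504.5 bp at 1 to 2 CPM, 659 bp at 2 to 5 CPM and 841.5 bp at 5 CPM or more. The widest were chr10:95003614-95005055 (1441 bp), chr2:100012894-100014334 (1440 bp) and chr14:55985265-55986700 (1435 bp). The last of these went from 9.62, 8.62 and 11.04 CPM with vehicle to 25.5, 26.1 and 33.4 CPM with 10 nM at 6 h (2.83-fold) and reached 4.17-fold at 18 h.

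Members were spread over all autosomes and chromosome X. As a share of regions of at least 1 CPM in vehicle, 0.84% of which were members, they made up 1.22% on chromosome 14 (49 members), 1.15% on chromosome 20 (37) and 0.991% on chromosome 5 (54). The lowest shares were on chromosome 19 (0.507%, 17 members), chromosome X (0.455%, 9) and chromosome 13 (0.433%, 7), and none of 169 such regions on chromosome Y was a member. Most stood alone. The median gap from a member to the next was 653050 bp, 701 members (85.7%) had no other member within 100 kb, and 117 formed 48 pairs and 7 groups of 3.

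The tightest group of 3 lay on chromosome 20 between 35108980 and 35122762, a span of 13782 bp. From the first to the last, its members rose 4.06-fold, 4.74-fold and 8.06-fold at 6 h and 4.13-fold, 3.64-fold and 5.89-fold at 18 h. At the last, chr20:35122113-35122762, vehicle gave 1.23, 2.14 and 4.30 CPM at 6 h, 0.1 nM gave 0.914, 4.68 and 2.01 CPM and 10 nM gave 19.3, 20.8 and 23.6 CPM. Of the other 2 regions inside the span, 1 was called higher with 10 nM at each time and neither was called with 0.1 nM.

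A second group, on chromosome 3 between 193889215 and 193941654, rose 5.41-fold, 8.95-fold and 10.3-fold at 6 h from left to right, and 5.15-fold, 9.002-fold and 9.42-fold at 18 h. Of 8 other regions in its span, 3 were called higher with 10 nM at 6 h, 2 at 18 h and 1 with 0.1 nM at 6 h. The third, on chromosome 10 between 95003614 and 95060266, joined the widest member (3.85-fold at 6 h) to chr10:95050484-95051170 (7.33-fold) and chr10:95059911-95060266 (10.6-fold). Among 6 other regions there, 1 was called higher with 10 nM at 6 h and none at 18 h. The weakest member of the chromosome 10 group in vehicle thus had the largest rise.

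Non-member regions close to members were read next. They were chosen by position, but around members that the same libraries had chosen by signal. The smallest gap from a member to the nearest region was 2 bp. Of the 1372 non-member regions within 10 kb of a member, edgeR called 387 (28.2%) higher with 10 nM at 6 h and 304 (22.2%) at 18 h, against 16.7% and 12.8% of all regions. The share fell with distance at 6 h, to 20.6% between 10 and 50 kb, 17.9% between 50 and 100 kb, 16.2% between 100 and 500 kb and 15.7% farther away. At 18 h it went from 22.2% to 14.8%, 13.2%, 11.8% and 12.1%. Calls of lower reads with 10 nM at 6 h were made at 83 (6.05%) of the nearest regions, against 8.42% of all regions. Members that lie close together share such neighbours, and neighbouring regions are not independent of each other, so these shares are descriptions.

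The neighbours' median vehicle level was 2.59 CPM, above the 2.10 CPM of all tested regions and the 2.03 to 2.38 CPM of regions farther from members. Restricted to the 1054 neighbours of at least 1 CPM, the shares were 22.9% at 6 h and 16.6% at 18 h, against 11.2% and 7.97% of all non-member regions of at least 1 CPM. With 0.1 nM, 21 of the 1372 neighbours (1.53%) were called higher at 6 h and 31 (2.26%) at 18 h, against 0.949% and 1.74% of all regions. Of the 387 neighbours called with 10 nM at 6 h, 329 (85.0%) were also called above 0.1 nM, which held for 76.0% of all regions called with 10 nM. Among the same 387, 19 (4.91%) were called with 0.1 nM, as were 4.89% of all regions called with 10 nM.

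Around the 190 regions raised by both doses, 316 regions lay within 10 kb, and the shares called higher were 33.9% with 10 nM at 6 h and 32.9% at 18 h. With 0.1 nM they were 4.75% at 6 h and 9.81% at 18 h. Around the 1175 weaker regions that only 10 nM raised, the shares were 26.5% and 22.5% with 10 nM and 1.68% and 2.72% with 0.1 nM, close to those around the members. The difference between these surroundings was not tested. The median gap from a member to the nearest region of any kind was 4758 bp, against 5461 bp over all tested regions.

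**Figure D5:**
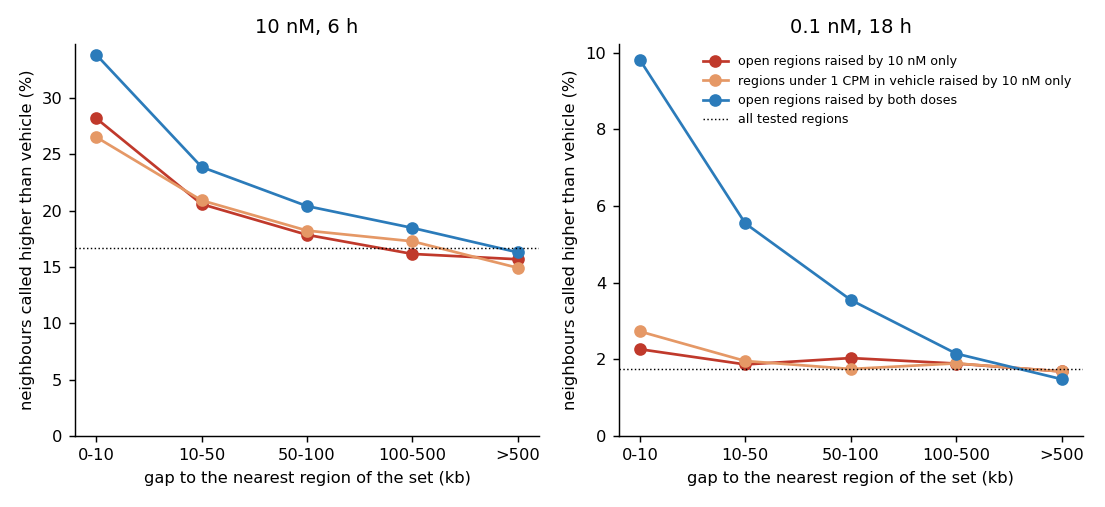
Percent of neighbouring regions called higher than vehicle (edgeR, adjusted p under 0.05) with 10 nM at 6 h (left) and with 0.1 nM at 18 h (right), by the gap in kb to the nearest region of the set; red, the 818 members; orange, the 1175 regions under 1 CPM with the same dose pattern; blue, the 190 regions raised by both doses; dotted, all tested regions (16.7% and 1.74%). Neighbours of the members reach 28.2% with 10 nM and 2.26% with 0.1 nM within 10 kb, and neighbours of the regions raised by both doses 33.9% and 9.81%.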

How the data were processed

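The authors deposited unnormalized read counts for 132604 regions in 18 libraries; per the submitters' processing notes they used BWA, MACS2 and build hg19, with versions and settings not given in the sources used here. edgeR 4.0.16 (R 4.3.3) left out 300 regions by its low-count filter (minimum count 10, minimum total 15), scaled with TMM and fitted 1 mean per group over all 18 libraries (12 residual degrees of freedom, quasi-likelihood test). All 818 members passed that filter. Adjusted p-values are Benjamini-Hochberg over the 132304 tested regions. Log2 CPM used a prior count of 2, which shrinks differences between low counts. The members' median rise with 10 nM was 2.50 in log2 CPM and 2.46 by the fit at 6 h. At 18 h it was 1.89 and 1.94. Library totals are sums over regions, so the reads outside regions are unknown. The fit was tested on simulated data with known changes.

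The members and lists were chosen with earlier results of these data known. Members were named by set rules: the 8 largest mean rises, the 6 highest vehicle levels, the smallest differences with 0.1 nM, of the groups of 3 members within 100 kb the 3 of shortest span, and regions beside each threshold; members named for time, width or missed calls were chosen after their values were seen. Replicate numbers were read as pairing libraries where all 3 correlations of deviations between equal numbers exceeded 0.1. This held for 10 nM against 0.1 nM at 18 h (0.60, 0.19 and 0.46). It also held for vehicle between the times (0.32, 0.12 and 0.45), and for no other comparison. At 18 h, 0.1 nM against vehicle had 0.45, 0.098 and 0.46, and 10 nM against vehicle had 0.36, 0.01 and 0.35. Alternatives were other scaling, filter, thresholds, prior counts, DESeq2 1.42.0, a replicate block, the compared groups alone, a library-composition covariate and leaving out each library. Genes, motifs and sequences were not analysed here.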

Additional observations from a re-analysis of the deposited data

How the results depend on the processing

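The number of members followed its thresholds: 1430 regions with a vehicle level of at least 0.5 CPM, 336 with at least 2 CPM, 1292 with the lower and 509 with the higher threshold for the rise tried, 517 with a 0.1 nM limit of 0.3 and 387 with every 0.1 nM library within 0.8. Leaving out each library in turn gave 516 to 944 regions. Members called lower with 10 nM at 18 h than at 6 h (21) numbered 50 with the replicate block, 75 with the composition covariate, 7 with the compared groups alone, 37 with DESeq2 and 7 to 65 leaving out each library. Members called for a change of the response to 10 nM between the times (0) numbered 2 with the replicate block, 5 with the covariate, 2 with DESeq2 and 0 to 1 leaving out each library. Over all regions, in either direction, calls of 10 nM between the times numbered 1649 in the main fit. They were 3778 with the block, 8446 with the covariate, 397 with the compared groups alone, 3169 with DESeq2 and 594 to 3297 leaving out each library. Calls for the change of the response over all regions were 2, 189, 712, 0, 232 and 0 to 63 in the same order. The causes were not tested. The replicate block gave all, all, 817 and 810 members called higher with 10 nM than vehicle or 0.1 nM, and changed no other count by over 1.5 times. With it chr3:186369455-186370015 and chr20:43123920-43125015 were called higher with 10 nM at 18 h than at 6 h (edgeR adjusted p of 0.0468 and 0.028). Leaving out each library, those 4 counts ran from 767 to 818 (vehicle, 6 h), 713 to 815 (vehicle, 18 h), 775 to 817 (0.1 nM, 6 h) and 578 to 786 (0.1 nM, 18 h). The regions chosen at 6 h and called at 18 h ran from 1626 to 2214, those chosen at 18 h and called at 6 h from 1372 to 1501, and the called neighbours within 10 kb from 312 to 406; for 0.1 nM against vehicle and for vehicle or 0.1 nM between the times the count remained 0. Of the named regions' values, none reversed; 34 of 1176 lost the call against vehicle at 6 h and 17 of 1176 at 18 h. Counts per member of 11.5 to 42.0 in the median with vehicle or 0.1 nM limit what can be said of single members at the low dose.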
